A study of Mus musculus with 8 samples.

Results

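The circadian clock genes Clock, Per1, Per2, Per3, Cry1, Cry2, Nr1d1, Nr1d2, Dbp and Bhlhe40 were examined by RNA-seq in libraries labelled as mouse liver. They were chosen by symbol from a list of core and output genes of the clock, and 10 of the 22063 genes in the deposited table carried these symbols. The libraries came from a study of tranilast, an anti-allergic drug, in mice on a high-fat and high-cholesterol (HFHC) diet, which asked how the drug acts on the response of the liver to lipids. A control group of 4 libraries, genotype WT, was compared with 4 libraries, also WT, labelled as control with tranilast. The series design names the HFHC diet for both groups, and the study's results describe the sequenced livers as those of HFHC-fed mice. The labels name no diet, strain, sex, age or dose, and in the methods the control mice ate standard chow and tranilast was also given without HFHC, so that the labels do not settle the diet. The labels also name a different sequencing instrument from the methods. The study's methods describe male C57BL/6J mice kept on a light and dark cycle. The time of day at which the sequenced samples were taken, on which the level of most clock transcripts depends, was not given in the sources used here.

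The circadian clock is a transcriptional feedback loop that runs in most cells of the body. CLOCK and its partner BMAL1, the product of Arntl, bind E-box sequences and activate the Per and Cry genes, whose proteins return to the nucleus and repress that activity. In an interlocked loop the nuclear receptors REV-ERB alpha and beta, encoded by Nr1d1 and Nr1d2, repress Arntl at sites that the activating ROR receptors also bind. Dbp encodes an output activator that acts at D-box sequences, and Bhlhe40 encodes a repressor that competes for E-boxes. In liver this clock times the transcription of many metabolic genes.

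The tissue label was checked against marker genes, and the hepatocyte markers went against it. Of 9 hepatocyte markers 8 were in the table, and together they had between 0 and 18 counts in a library, at most 0.000149% of the total. Alb, which encodes albumin, stayed at 0 to 2 counts, Tat and Hnf4a had 0 in all 8 libraries, and Ttr, the most abundant of the list, had at most 17. The 10 macrophage markers held 0.933%, 0.989%, 0.947% and 0.945% of the counts in control replicates 1 to 4 and 0.969%, 0.966%, 0.949% and 0.909% in tranilast replicates 1 to 4. These shares overlapped between the groups. Lyz2, the gene of lysozyme, was the most abundant of them with 51267 to 68975 counts, whereas Mertk had at most 1 count and Mrc1 at most 3. The Kupffer cell markers Clec4f, Vsig4 and Timd4 were at 0 throughout. The endothelial list had at most 10 counts in a library, with Cdh5 the most abundant, the stellate list 13, led by Des, the cholangiocyte list 8, led by Epcam, and the lymphocyte list 4, all from Cd79a. Of these lists only the macrophage markers were abundant, Mertk and Mrc1 excepted. The values below are therefore those of libraries labelled as liver, and they cannot be assigned to hepatocytes or to whole liver tissue.

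Total counts ranged from 14585153 to 15618787 for the control libraries and from 12053036 to 14679386 for those with tranilast. Where no count was seen, up to 3 counts may have been missed, and this limit is for counting error alone. It equals 0.192 to 0.249 CPM, which are counts per library total on a common scale, taken here on the unscaled totals. The labels do not say whether the libraries came from separate animals, so the p-values measure the spread between these samples, which may be technical. Levels are given below as CPM after scaling by the TMM method, which corrects the library totals for composition, and fold changes are those of tranilast over control.

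Of the 10 clock genes, all of which passed the filter on low counts, 3 rose and 1 fell with tranilast when genes were called below 0.05 after Benjamini-Hochberg adjustment over the 10770 genes that edgeR tested. Clock, Nr1d2 and Per3 rose and Per1 fell. The same test called 57.0% of all genes tested, 28.2% higher and 28.8% lower, so that 4 of 10 was not above the background. In bulk samples fewer cells of a type and less RNA per cell cannot be told apart, and this holds for each difference. The groups did not overlap for 3 of the 10, Nr1d2, Per1 and Per3, where 49.8% of all tested genes had groups without overlap. The median log2 fold change of the clock genes was 0.08, beside 0.01 over all tested genes, and the median absolute change was 0.14 beside 0.21. None reached the absolute log2 fold change of 1.5 that the study's methods set. The count was 0 of 10 in edgeR, DESeq2, limma-voom and limma trend, and 1.11% of all tested genes passed this fold rule with an adjusted p-value under 0.05. Without a fold rule, 4 of the clock genes had an unadjusted p-value under 0.05 in edgeR, as did 6607 of the 10770 tested genes.

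The scaling of the libraries set the split of all calls. Higher genes made up 49.5% of the called genes under TMM, 62.6% under upper-quartile factors and 70.9% under library size alone. Limma trend gave 70.5% and 70.4% when run on FPKM, taken as log2 after adding 1 or 0.1, which moved the median of all genes by 0.09 and 0.11. With library size alone the median log2 fold change of all genes moved up by 0.12. Clock, Nr1d2, Per3 and Per1 had the same direction and a call under every scaling, whereas Per2, Cry2 and Bhlhe40 changed from lower to higher with upper-quartile factors and with library size.

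**Figure D1:**
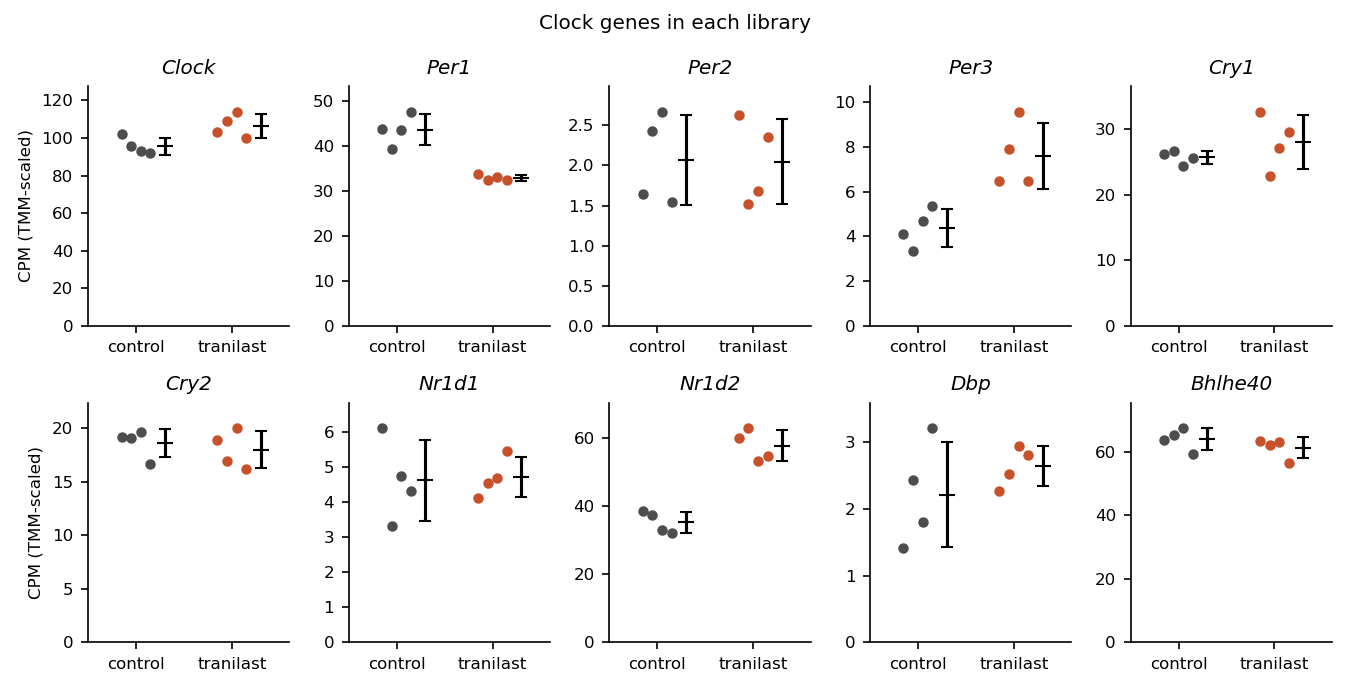
TMM-scaled CPM of the 10 clock genes in each library, with 4 control libraries in grey and 4 tranilast libraries in orange, and with black bars for the mean and SD. The groups are apart for Per1, Per3 and Nr1d2 and overlap in the other panels.

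The promoters of genes that moved in opposite directions are shown because the loop is built on the motifs they hold. RefSeq promoter windows on GRCm38.p6, reaching from 250 bases before to 50 after the start site, were found for 8 of the 10 clock genes and not for Per2 and Bhlhe40. Both strands were searched for the E-box CACGTG, the REV-ERB and ROR half-site AGGTCA, the D-boxes TTATGTAA and TTATGCAA, and the cyclic AMP response element (CRE) TGACGTCA, which do not overlap in the windows printed here. Of all 32851 windows, 7.15% held the E-box, 16.3% the half-site, 1.66% a D-box and 1.79% the CRE. Counted over the 27025 genes, with a match in any window of a gene, the shares were 8.09%, 18.1%, 1.98% and 2.03%. An E-box was found for Per1 and Cry1, a half-site for Clock, in 1 of its 3 windows, Nr1d2 and Per1, a D-box for Per1 and Per3, and the CRE for 0 of the 8. Ciart, a repressor of the CLOCK and BMAL1 complex, and Tef, a relative of Dbp, are shown beside them because their adjusted p-values were the smallest of the other clock genes, a choice made after their values were seen. The sequences are the 250 bases before the start site, 5′ to 3′ on the strand of the gene, with motif matches in capitals.
Per1 (chr11:69098699-69098948, plus strand): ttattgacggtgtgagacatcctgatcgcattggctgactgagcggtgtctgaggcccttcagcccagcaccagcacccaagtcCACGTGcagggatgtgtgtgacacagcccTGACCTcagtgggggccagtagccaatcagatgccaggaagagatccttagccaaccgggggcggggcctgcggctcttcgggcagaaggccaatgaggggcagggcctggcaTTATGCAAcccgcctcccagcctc
Per3 (chr4:151044666-151044915, minus strand): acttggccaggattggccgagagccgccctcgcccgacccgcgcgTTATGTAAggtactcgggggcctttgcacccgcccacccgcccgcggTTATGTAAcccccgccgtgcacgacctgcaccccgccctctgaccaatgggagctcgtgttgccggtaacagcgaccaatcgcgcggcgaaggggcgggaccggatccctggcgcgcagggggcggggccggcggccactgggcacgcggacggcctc
Nr1d2 (chr14:18239107-18239356, minus strand): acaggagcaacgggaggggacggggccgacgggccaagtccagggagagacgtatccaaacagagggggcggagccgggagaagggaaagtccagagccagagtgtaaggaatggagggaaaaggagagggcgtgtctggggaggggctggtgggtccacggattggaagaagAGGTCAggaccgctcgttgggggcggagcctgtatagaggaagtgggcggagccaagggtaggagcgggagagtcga
Ciart (chr3:95882229-95882478, minus strand): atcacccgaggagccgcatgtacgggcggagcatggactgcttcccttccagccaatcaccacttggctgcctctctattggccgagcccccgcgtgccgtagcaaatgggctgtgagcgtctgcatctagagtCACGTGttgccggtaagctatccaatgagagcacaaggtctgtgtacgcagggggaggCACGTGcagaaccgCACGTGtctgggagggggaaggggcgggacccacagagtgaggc
Tef (chr15:81811164-81811413, plus strand): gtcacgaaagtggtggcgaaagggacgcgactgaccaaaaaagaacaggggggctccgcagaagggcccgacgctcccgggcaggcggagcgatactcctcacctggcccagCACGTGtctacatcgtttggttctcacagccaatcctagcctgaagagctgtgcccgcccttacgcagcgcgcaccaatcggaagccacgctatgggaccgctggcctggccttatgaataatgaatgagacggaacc

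Per1 and Tef each have 2 windows, of which 1 is shown. The other window of Per1 held 0 matches to the motifs, and that of Tef held an E-box. In the Per1 window the E-box began 166 bases before the start site, the half-site 137 and the D-box 24. The Per3 window held a D-box at 205 and another at 158 bases before the start and no E-box. Nr1d2 held the half-site at 77 bases. The Ciart window held E-boxes at 116, 58 and 44 bases, and the Tef window held an E-box at 138. Both windows held an E-box, and Ciart fell and Tef rose, as given below. Whether the motif bears on the direction of a gene was not tested. A match of letters is a description and not a binding site.

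Clock (ENSMUSG00000029238, chromosome 5 of GRCm38, 76209868 to 76304792) encodes the activator of the loop. It had 102, 95.7, 93.1 and 91.9 CPM in control replicates 1 to 4 and 103, 109, 114 and 100 CPM in tranilast replicates 1 to 4. In 3 of the 4 tranilast libraries the value lay above every control library, and replicate 4 lay below control replicate 1, so that the groups overlapped. Control libraries averaged 95.6 ± 4.36 CPM (SD, n = 4), and libraries with tranilast averaged 106 ± 6.15 CPM (SD, n = 4). The log2 fold change was 0.15 (SE 0.047, with an adjusted p of 0.00899 in edgeR), a rise of 11.3%, and 61.3% of all tested genes had a larger absolute change. With library size alone it was 0.27, which includes the shift of all genes given above. Permuting the libraries in all ways, an exact and two-sided test, gave p = 0.0571 on the log2 CPM of Clock. Arntl, which encodes the partner of CLOCK, averaged 25.5 ± 2.10 CPM (SD, n = 4) without and 26.2 ± 2.10 CPM (SD, n = 4) with tranilast. Its log2 change was 0.04 (adjusted p = 0.705, and between 0.0960 and 0.903 across its alternatives), and turned to -0.02 without control replicate 1 and to -0.01 without tranilast replicate 4. Npas2, which can take the place of CLOCK, had at most 6 counts and Arntl2 at most 4, and neither was tested.

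The Per genes encode repressors of CLOCK and BMAL1, and they did not move together. Per1 (ENSMUSG00000020893, chromosome 11, 69095217 to 69109960) had 43.9, 39.3, 43.7 and 47.7 CPM in control replicates 1 to 4 and 33.9, 32.4, 33.1 and 32.4 CPM in tranilast replicates 1 to 4. All 4 tranilast libraries were lower than the lowest control library, and the tranilast values were the tighter group. Control libraries averaged 43.7 ± 3.44 CPM (SD, n = 4) and those with tranilast 33.0 ± 0.716 CPM (SD, n = 4), and the log2 fold change was -0.41 (SE 0.061, with an adjusted p of 1.8e-05 in edgeR). On the deposited FPKM scale, which divides by transcript length, the Per1 groups overlapped. There the control libraries lay between 9.25 and 15.5 FPKM and the tranilast libraries between 7.47 and 11.8 FPKM, and limma trend on the log2 of FPKM plus 1 gave an adjusted p of 0.0450, the highest of its alternatives, which reached down to 1.1e-07.

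Per3 (ENSMUSG00000028957, chromosome 4, 151003652 to 151044665) moved the other way. It had 4.13, 3.33, 4.68 and 5.37 CPM in control replicates 1 to 4 and 6.46, 7.89, 9.58 and 6.46 CPM in tranilast replicates 1 to 4, from counts of 48 to 120. The tranilast libraries all lay above the control libraries, with replicate 3 the highest. The log2 fold change of Per3 was 0.79 (SE 0.17, with an adjusted p of 8.2e-04 in edgeR), and 6.90% of all tested genes had a larger absolute change. This was the highest of the clock genes with edgeR and TMM, but Nr1d2 was higher on the log2 of FPKM plus 1 (0.72 against 0.45), without control replicate 2 (0.74 against 0.68) and without tranilast replicate 3 (0.75 against 0.66). Per2 (ENSMUSG00000055866, chromosome 1, 91415982 to 91459324) had 1.64, 2.43, 2.67 and 1.54 CPM in control replicates 1 to 4 and 2.63, 1.52, 1.68 and 2.35 CPM in tranilast replicates 1 to 4. These values interleaved, and the log2 fold change was -0.01 (SE 0.27, with an adjusted p of 0.971). Per2 had counts of 21 to 40 and the largest SE of the clock genes.

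Cry1 and Cry2 encode the cryptochromes, which repress CLOCK and BMAL1 together with the PER proteins. Cry1 (ENSMUSG00000020038, chromosome 10, 85131700 to 85185064) had 26.2, 26.7, 24.4 and 25.7 CPM in control replicates 1 to 4 and 32.7, 22.9, 27.2 and 29.6 CPM in tranilast replicates 1 to 4. Of the tranilast libraries 3 lay above all control libraries and replicate 2 lay below them. The log2 fold change was 0.13 (SE 0.088, with an adjusted p of 0.230). It was 0.05 (adjusted p = 0.656) without tranilast replicate 1 and 0.22 (adjusted p = 0.0284) without tranilast replicate 2, so that its size depended on single libraries. It was 0.24 (adjusted p = 0.0226) with library size alone, and 0.21 (adjusted p = 0.0798) and 0.23 (adjusted p = 0.0785) with limma trend on the log2 of FPKM plus 1 and plus 0.1. Cry2 (ENSMUSG00000068742, chromosome 2, 92403646 to 92434043) lay between 16.7 and 19.6 CPM in the control group and between 16.2 and 20.0 CPM with tranilast. Its log2 fold change was -0.06 (SE 0.089, with an adjusted p of 0.615).

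Of the REV-ERB receptors, Nr1d2 rose and Nr1d1 was not called. Nr1d2 (ENSMUSG00000021775, chromosome 14, 18204054 to 18239127), the gene of REV-ERB beta, had 38.6, 37.3, 33.0 and 32.2 CPM in control replicates 1 to 4 and 60.1, 62.9, 53.4 and 54.7 CPM in tranilast replicates 1 to 4. The lowest tranilast library was well above the highest control library. It averaged 35.3 ± 3.14 CPM (SD, n = 4) without and 57.8 ± 4.47 CPM (SD, n = 4) with tranilast, for a log2 change of 0.71 (SE 0.067, with an adjusted p of 5.4e-08 in edgeR), and 8.53% of all tested genes had a larger absolute change. Nr1d1 (ENSMUSG00000020889, chromosome 11, 98767932 to 98775333), the gene of REV-ERB alpha, had 6.12, 3.33, 4.75 and 4.33 CPM in control replicates 1 to 4 and 4.12, 4.56, 4.71 and 5.48 CPM in tranilast replicates 1 to 4. Control replicates 1 and 2 held the highest and the lowest value of all 8 libraries. The log2 fold change was 0.03 (SE 0.19, with an adjusted p of 0.901), and it was 0.19 without control replicate 1 and -0.10 without control replicate 2. In GENCODE M21 the exons of Nr1d1 share 263 bases, 8.55% of their length, with Thra on the opposite strand. The strand setting of the counting was not given in the sources used here, so that reads from the shared bases are uncertain.

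Dbp, the output activator, and Bhlhe40, the E-box repressor, were not called. Dbp (ENSMUSG00000059824, chromosome 7, 45705088 to 45710203) had 1.42, 2.43, 1.80 and 3.21 CPM in control replicates 1 to 4 and 2.27, 2.53, 2.95 and 2.81 CPM in tranilast replicates 1 to 4. All tranilast values lay within the range of the control group, which was the wider of the groups. The log2 fold change was 0.25 (SE 0.25, with an adjusted p of 0.415), and it was 0.09 without control replicate 1 and 0.48 without control replicate 4. Of the exonic bases of Dbp, 18.0% are shared with Sphk2 on the opposite strand, which had 418 to 633 counts where Dbp had 20 to 46, so that reads from the shared bases are uncertain for Dbp too and for its ratio to Tef. Bhlhe40 (ENSMUSG00000030103, chromosome 6, 108660629 to 108666925) lay between 59.4 and 67.5 CPM in the control group and between 56.5 and 63.5 CPM with tranilast, a log2 fold change of -0.06 (SE 0.052, with an adjusted p of 0.320). Smaller overlaps with noncoding antisense genes covered 4.67% of the exonic bases of Cry2 and 2.51% of those of Bhlhe40, and an unclassified gene on the opposite strand covered 19.0% of those of Bhlhe41, the relative of Bhlhe40. In the exact two-sided permutation test Nr1d2, Per1 and Per3 each had p = 0.0286, the smallest that 4 libraries against 4 allow.

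**Figure D2:**
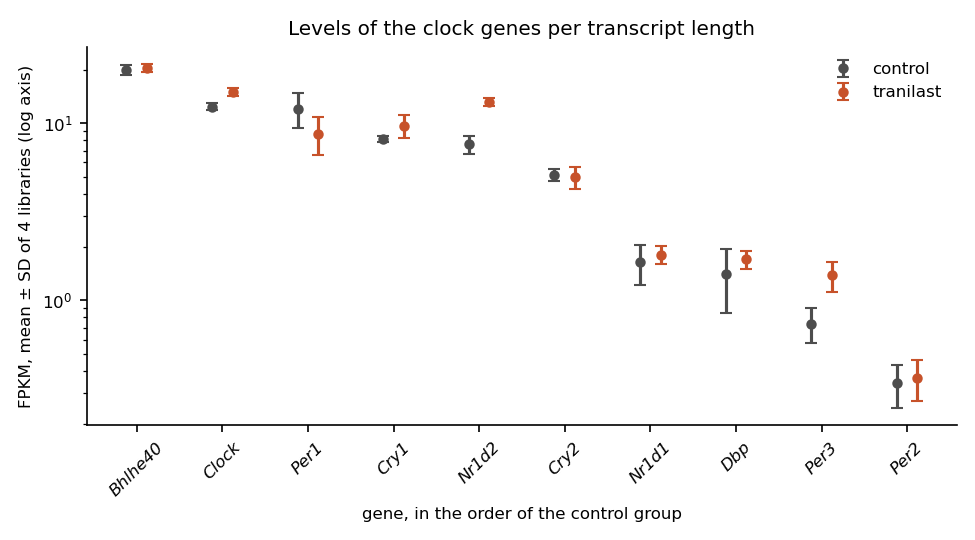
Deposited FPKM of the 10 clock genes as mean and SD of 4 libraries per group, on a log axis and in the order of the control group. Bhlhe40 is at the top with 20.1 FPKM and Per2 at the bottom with 0.340 FPKM, and Nr1d2 passes Cry1 and Per1 in the tranilast group.

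Levels between genes were compared per length, on the FPKM scale. In the control group Bhlhe40 came first with 20.1 ± 1.26 FPKM (SD, n = 4), followed by Clock with 12.4 ± 0.554, Per1 with 12.1 ± 2.69, Cry1 with 8.17 ± 0.320 and Nr1d2 with 7.60 ± 0.909 FPKM. Cry2 had 5.09 ± 0.401 FPKM, Nr1d1 1.64 ± 0.414, Dbp 1.40 ± 0.558, Per3 0.739 ± 0.164 and Per2 0.340 ± 0.0926 FPKM. The neighbours Clock and Per1, Cry1 and Nr1d2, Nr1d1 and Dbp, and Dbp and Per3 lay within their SDs of each other. In the tranilast group Nr1d2, with 13.2 ± 0.764 FPKM (SD, n = 4), came next after Clock with 15.0 ± 0.803 FPKM, and Per1, with 8.68 ± 2.10 FPKM, came below Cry1 but within their SDs. Bhlhe40 stayed first and Per2 last. The levels of Nr1d1 and Dbp were low beside those of Clock in both groups. Both genes are strongly rhythmic in liver, but these levels cannot be read against that rhythm. The time of sampling was not given, and the libraries held almost no hepatocyte marker counts.

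Whether paralogs differed in their response was tested on the ratio of their CPM within each library, from which the scaling of the library cancels apart from the 0.1 added before the logarithm. The pairs are paralogs among the clock genes, Tef and Bhlhe41 included, and the test was added after the data were seen. The ratio of Per3 to Per1 lay at 0.0848 to 0.113 without and at 0.190 to 0.290 with tranilast, without overlap. The difference of the log2 ratio was 1.18 (exact permutation test, two-sided p = 0.0286, and 0.10 after Benjamini-Hochberg adjustment over 7 pairs). Every tranilast library lay above the controls in Per3 and below them in Per1. The separation of this ratio and its p were therefore fixed by those values and add no support to them. The ratio of Nr1d2 to Nr1d1 lay between 6.31 and 11.2 in the control group and between 9.99 and 14.6 with tranilast. Control replicate 2, the lowest in Nr1d1, gave the overlap, and the difference of the log2 ratio was 0.66 (exact permutation test, p = 0.0571, adjusted p = 0.133). Tef over Dbp was at most 9.85 in the control group and at least 9.76 with tranilast, so that the plain ratios overlapped and the groups lay apart only after 0.1 was added to the CPM. Its log2 ratio then differed by 0.65 (exact permutation test, p = 0.0286, adjusted p = 0.10). For Per2 over Per1, Per3 over Per2, Cry1 over Cry2 and Bhlhe41 over Bhlhe40 the groups overlapped, with differences between 0.17 and 0.80. With 7 pairs and a smallest possible exact p of 0.0286, an adjusted p under 0.05 was out of reach unless most pairs lay at that limit, so that the adjusted values say little for or against a difference. Over the alternatives of the Per3 to Per1 ratio the difference lay between 1.07 and 1.27. The other pairs kept their direction under the alternatives. The range was 0.22 to 0.52 for Per2 over Per1, 0.59 to 1.02 for Per3 over Per2 and 0.09 to 0.23 for Cry1 over Cry2. It was 0.56 to 0.83 for Nr1d2 over Nr1d1, 0.26 to 0.46 for Bhlhe41 over Bhlhe40 and 0.46 to 0.77 for Tef over Dbp.

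Other genes of the clock were taken from 5 lists with 29 genes, of which 23 were tested. Of these, 8 rose and 8 fell with tranilast in edgeR, 69.6% beside the background of 57.0%, and the median log2 fold change was 0.00. Among the partners of the loop, Ciart (ENSMUSG00000038550) had 16.4, 16.6, 18.2 and 17.4 CPM in control replicates 1 to 4 and 8.09, 7.89, 8.63 and 7.24 CPM in tranilast replicates 1 to 4. The groups were far apart, with a log2 fold change of -1.11 (SE 0.097, with an adjusted p of 2.0e-08). Rora, which encodes an activating ROR receptor, had between 7 and 18 counts and a log2 fold change of 1.09 (SE 0.37, with an adjusted p of 0.0170). Its call was lost without tranilast replicate 3 (adjusted p = 0.0563), without the filter (0.0605) and with limma trend on the log2 of FPKM plus 1 or plus 0.1. On those scales its log2 fold change was 0.14 (adjusted p = 0.190) and 0.69 (0.103), and its adjusted p lay between 0.00883 and 0.190 across its alternatives. Bhlhe41 rose by 0.29 on the log2 scale (adjusted p = 0.0356). This call was lost without control replicate 1 (adjusted p = 0.119), control replicate 3 (0.0641), tranilast replicate 1 (0.0734) or tranilast replicate 4 (0.0878). It was also lost after thinning (0.0779) and with limma trend on FPKM, where the log2 fold change was 0.17 (0.321) and 0.24 (0.326), with adjusted p from 0.00433 to 0.326 across its alternatives. Rorb was not tested.

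Tef (ENSMUSG00000022389) encodes a D-box activator of the same family as Dbp. It had 14.0, 17.0, 17.1 and 16.1 CPM in control replicates 1 to 4 and 32.4, 29.5, 28.8 and 33.3 CPM in tranilast replicates 1 to 4. All tranilast libraries were far above the control libraries, with a log2 fold change of 0.95 (SE 0.081, with an adjusted p of 1.4e-08 in edgeR). Hlf, the remaining member of the family, had at most 3 counts, and Nfil3, which represses at D-boxes, had a log2 fold change of -0.10 (adjusted p = 0.476).

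**Figure D3:**
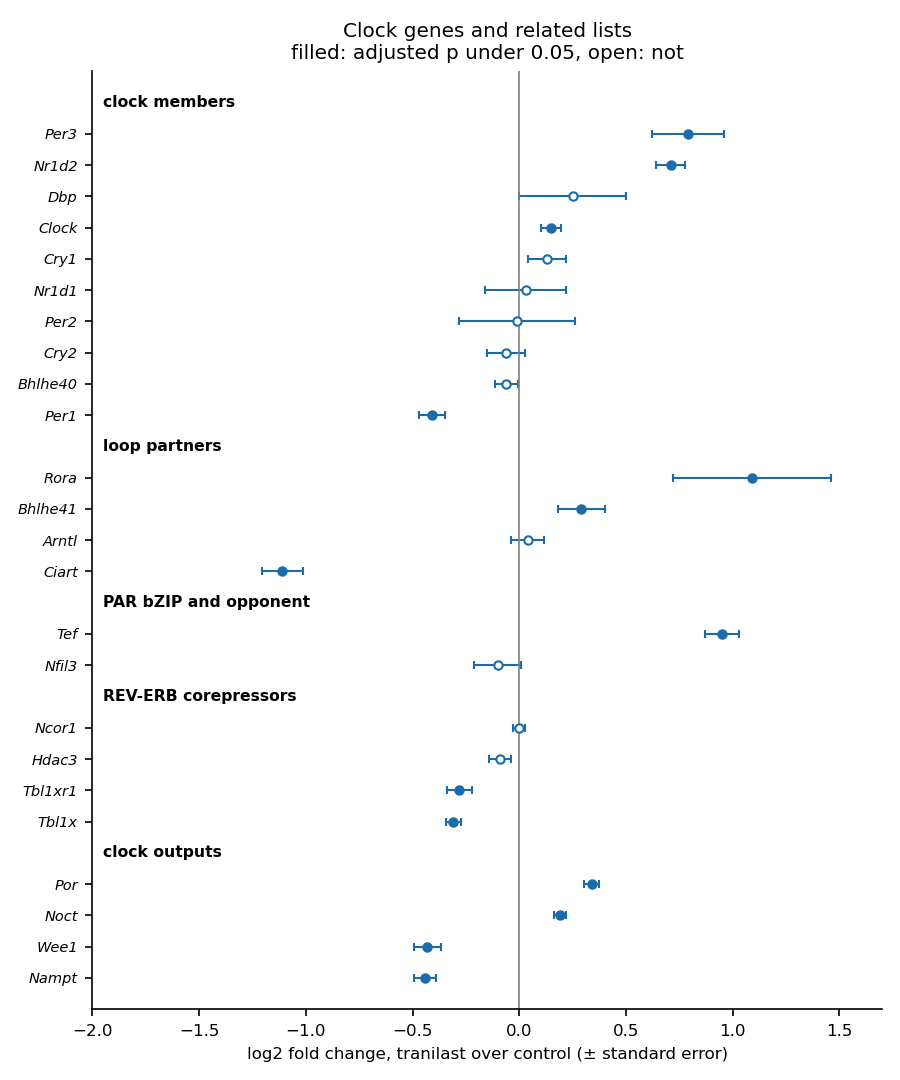
Log2 fold change, tranilast over control, with its standard error from edgeR for the 10 clock genes and the tested genes of 4 of the 5 related lists. Filled points passed an adjusted p-value of 0.05, and the ends of the range are Ciart at -1.11 and Rora at 1.09, which was 0.14 on the log2 of FPKM plus 1.

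Genes that act on the PER and CRY proteins and on CLOCK after translation were called in both directions. Csnk1e, a casein kinase that phosphorylates PER, averaged 28.0 ± 1.42 CPM (SD, n = 4) without and 38.5 ± 1.64 CPM (SD, n = 4) with tranilast, for a log2 rise of 0.46 (adjusted p = 4.4e-06). Btrc, which targets PER, rose by 0.33 on the log2 scale. Csnk1a1 fell by 0.22, Fbxw11, the paralog of Btrc, by 0.29 and Cipc, an inhibitor of CLOCK, by 0.15 on that scale. With library size alone Csnk1a1 was -0.10 and Fbxw11 -0.17, and on the log2 of FPKM plus 1 they were -0.12 and -0.16, both still called. The call of Cipc was lost without control replicate 2 (adjusted p = 0.0688) or tranilast replicate 3 (0.0571), with upper-quartile factors, at -0.08 (0.193), with library size, at -0.03 (0.600), and with FPKM values (0.439 and 0.434), and its adjusted p lay between 0.0123 and 0.600 across its alternatives. Of the REV-ERB corepressor subunits, Tbl1x fell by 0.31 and Tbl1xr1 by 0.28 on the log2 scale, and Tbl1x was -0.19 with library size alone. On the log2 FPKM scales Tbl1xr1 was higher, at 0.07 and 0.08, without a call. Ncor1 and Hdac3, the corepressor and its deacetylase, were not called, with log2 fold changes of 0.00 and -0.09.

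All 4 genes of the output list were called in edgeR, in both directions, where 57.0% of all tested genes were called. Nampt, which encodes an enzyme of NAD salvage, averaged 265 ± 20.5 CPM (SD, n = 4) without and 196 ± 13.6 CPM (SD, n = 4) with tranilast, for a log2 change of -0.44 (adjusted p = 1.0e-06). Wee1, the kinase that holds back mitotic entry, had a log2 fold change of -0.43 (adjusted p = 1.3e-05). Noct, a phosphatase of NADPH, rose by 0.19 and Por, the electron donor of cytochromes P450, by 0.34 on the log2 scale, and Noct was 0.31 with library size alone.

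Genes whose log2 CPM followed the clock genes with the highest and the lowest fold change in edgeR with TMM were sought among 9764 tested genes with a mean count of at least 50. For Per3 these were Insr with a Pearson r of 0.982, Aak1 with 0.978 and Zc3h3 with 0.977 over 8 libraries. For Per1 they were Trim28 with 0.992, Fam120a with 0.988 and Sipa1 with 0.988. The libraries fall into the control and tranilast groups, r within a group was not computed, and each r is given as a description. The log2 fold changes were 0.38 for Insr and -0.31 for Trim28.

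**Figure D4:**
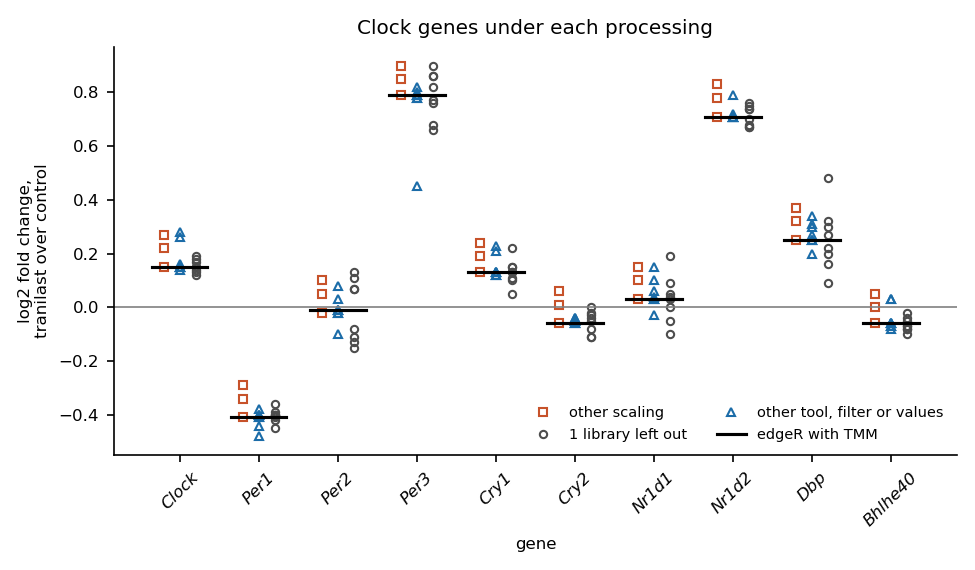
Log2 fold change of the 10 clock genes under each processing, with edgeR and TMM as black lines, other scalings as squares, other tools, filters or values as triangles and each left-out library as circles. Clock, Per1, Per3 and Nr1d2 keep their side of 0, and Per2, Cry2, Nr1d1 and Bhlhe40 cross it.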

How the data were processed

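RNA-seq libraries were grouped by their labels into 4 control and 4 tranilast samples. The authors deposited an estimated count per gene, and some of these, as for Nr1d1 and Dbp, were not whole numbers. The authors also deposited FPKM, normalized for transcript length and depth. The aligner, counting tool and build are not given in the sources used here, and the study's methods name poly-A libraries and limma.

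Estimated counts were rounded, filtered with filterByExpr, scaled by TMM and tested by the quasi-likelihood test of edgeR 4.0.16, adjusted by the Benjamini-Hochberg method over all genes tested. Genes were called at an adjusted p-value under 0.05. Standard errors are the log2 fold change over the root of the F statistic. CPM used the TMM-scaled totals. Exact permutation tests used log2 CPM with 0.1 added. The ratios of paralogs and their alternatives (1 added, each library left out) were added after the data were seen. Alternatives were RLE, upper-quartile and library size scaling, DESeq2 1.42.0, limma 3.58.1 (voom, and trend on FPKM), other filters, thinning, a replicate block and each library left out. Code was tested on simulated data. Coordinates are from GENCODE M21, where 21973 of 22063 identifiers matched. The clock genes, the other clock genes and 2 further lists, and the rule for naming genes (all listed genes, and 3 genes most correlated with the highest and the lowest), were chosen with earlier results of these data known. R 4.3.3 and Python 3.11.15 were used.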

Additional observations from a re-analysis of the deposited data

Results flagged for a closer look

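In the 62 groups of 4 libraries examined, 2 held a library far from the others. Cry2 had 16.7 CPM in control replicate 4, where the other control libraries lay between 19.1 and 19.6 CPM. Btrc had 12.1 CPM in the same library, where the others lay between 14.2 and 14.3 CPM. Chance flags about 1 in 20 groups, so that 2 of 62 was no more than chance would give. Btrc, without control replicate 4, had a log2 fold change of 0.27 (adjusted p = 0.0193 in edgeR) and kept its call. Without control replicate 4 the log2 fold change of Cry2 was -0.11 (adjusted p = 0.347 in edgeR, with adjusted p from 0.347 to 0.986 across its alternatives), again without a call. Other single libraries moved it the other way, to -0.02 without tranilast replicate 2 and -0.00 without tranilast replicate 4.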

How the results depend on the processing

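Across the 19 alternatives, Clock, Nr1d2, Per3 and Per1 kept their direction and a call, with log2 fold changes of 0.12 to 0.28, 0.67 to 0.83, 0.45 to 0.90 and -0.48 to -0.29. Between 3 and 4 clock genes were higher, the additional gene being Cry1, and 1 was lower. Of the other clock genes, 7 to 11 were higher and 6 to 8 lower. Of all genes, 4613 were higher and 1893 lower with library size alone, and 1660 and 1663 were lower with limma trend on the log2 of FPKM plus 1 and plus 0.1, where 3039 and 3104 were higher and lower with TMM. The TMM factors were 0.956 to 0.965 in the control and 1.04 in the tranilast libraries.

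Several genes without a call changed direction. With upper-quartile factors Per2 was 0.05, Cry2 0.01 and Bhlhe40 0.00, and with library size they were 0.10, 0.06 and 0.05. On log2 FPKM plus 1 and plus 0.1, Per2 was 0.03 and 0.08, Bhlhe40 0.03 and 0.03, and Tbl1xr1, which was called in edgeR, 0.07 and 0.08. For these FPKM values the cause was not tested. Nr1d1 was -0.03 after thinning. With each library left out in turn, Nr1d1 ranged from -0.10 to 0.19, Per2 from -0.15 to 0.13 and Arntl from -0.02 to 0.08.

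With the replicate number as a block, 6009 genes were called, and the same 4 clock genes were among them. The call of Crem, described below, was lost (adjusted p = 0.0665), with its log2 fold change at 0.28. Libraries with the same number had correlations of 0.09, 0.09, 0.01 and 0.24 in their deviations from the group means, and 3 of 8 libraries were closest to their own number, so the numbers do not show a pairing. Per2, Dbp, Nr1d1 and Rora had at most 40, 46, 86 and 18 counts in a library and standard errors of 0.27, 0.25, 0.19 and 0.37. Rora had no value where at least 10 counts were asked of every library.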

Other observations

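Several clock genes also respond to glucocorticoids and to cyclic AMP, and targets of both were counted. Of 6 listed targets of the glucocorticoid receptor, 5 were tested and 1 rose in edgeR, or 20.0% called, where 57.0% of all tested genes were called. Klf9, a transcription factor that is itself rhythmic in many tissues, averaged 33.8 ± 1.65 CPM (SD, n = 4) without and 40.2 ± 1.30 CPM (SD, n = 4) with tranilast, for a log2 rise of 0.25 (adjusted p = 0.00108). The targets without a call, Fkbp5, Tsc22d3, Sgk1 and Dusp1, lay between -0.09 and 0.24, and Zbtb16 was not tested.

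Of 5 CREB targets, all tested, 2 rose and 1 fell, or 60.0% called beside the same 57.0%. Nr4a1, an immediate-early nuclear receptor, had a log2 fold change of 0.50 (adjusted p = 0.00671 in edgeR) and Fos of -0.35 (adjusted p = 6.7e-05), which was -0.23 with library size alone. Crem had a log2 fold change of 0.28 (adjusted p = 0.0451), and its call was lost with each library left out except control replicate 4, with adjusted p-values of 0.0513 without tranilast replicate 2 up to 0.103 without control replicate 1. It was also lost in DESeq2 (0.0844), without the filter (0.0906) and with the replicate block (0.0665), with adjusted p from 6.9e-04 to 0.103 across its alternatives. Where the call was lost, the log2 fold change of Crem stayed between 0.24 and 0.30. It was 0.39 with library size alone and after thinning, and 0.44 and 0.51 on the log2 of FPKM plus 1 and plus 0.1. Nr4a2 and Sik1 were not called, with log2 fold changes of -0.18 and 0.04.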
